A study of Mus musculus with 2 samples.

Results

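Granzyme D to G high natural killer (NK) cells are the sorted tumour NK cells that held 5 or more unique molecular identifiers (UMIs, counted RNA molecules) of Gzmd, Gzme, Gzmf and Gzmg together. They were selected on 4 readouts of the deposited counts: at least 1 UMI of Ncr1, under 0.15% of UMIs from the tumour or stroma genes Col1a1, Col1a2, Sparc, Cald1, Pcolce and Lrp1, fewer than 2 UMIs of the cell cycle genes Mki67, Rrm2, Ccnb2 and Top2a, and the granzyme sum. Of 20821 cells in all, 10910 passed the first 3 filters, and 605 of these were members, 370 of 4180 in the IL-15SA library and 235 of 6730 in the IL-15SA+IL-21Fc library. The cells they are described against passed the same 3 filters and had a granzyme D to G sum of 0, 2729 and 5638 cells.

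The cells came from CT26_b2m-/- tumours, a mouse colon carcinoma line that by its label lacks B2m, the light chain of MHC class I. The titles name the treatment of the mice: IL-15SA for 1 library, and IL-15SA+IL-21Fc, called the combination here, for the other. Cells that were CD45.2 positive, CD3 negative and NKp46 positive were sorted, those of 1 treatment were pooled over animals whose number is not given in the sources used here, and RNA was captured in microwells. Tumour, sort and method were the same in both groups, neither of which was untreated, so each treatment has 1 library and no difference below has a replicate check or a p-value. The libraries held 8386 cells with 30893388 UMIs and 12435 cells with 35336180 UMIs.

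Granzymes are serine proteases that NK cells and cytotoxic T cells store in granules and release, together with the pore-forming protein perforin, into a target cell. Mice carry a row of granzyme genes next to Gzmb that humans lack, among them Gzmc, Gzmd, Gzme, Gzmf and Gzmg, and these are known to appear in strongly or repeatedly stimulated lymphocytes later than Gzma and Gzmb. Granzyme B cuts caspases and other substrates in the target cell, while the substrates of granzymes D to G are less well known.

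The 4 genes lie close together on the minus strand of chromosome 14 (mm10, GENCODE M21): Gzme at chr14:56117626-56120625, Gzmd at chr14:56129556-56132608, Gzmg at chr14:56156582-56159579 and Gzmf at chr14:56205263-56211417. Gzmc follows at chr14:56231441-56234656 and Gzmb at chr14:56258838-56262260. The stretches just upstream of the 5 start sites, from RefSeq (GRCm38.p6), are shown for the similarity of the genes. They lie outside the transcripts, so they do not bear on how reads can be told apart. Each is 99 bases long and is written 5′ to 3′ on the strand of the gene, with capitals for positions that are identical in all 5.
Gzme (chr14:56120642-56120740, minus strand): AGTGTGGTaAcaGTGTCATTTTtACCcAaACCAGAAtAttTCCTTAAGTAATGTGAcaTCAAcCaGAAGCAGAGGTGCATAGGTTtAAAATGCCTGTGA
Gzmd (chr14:56132609-56132707, minus strand): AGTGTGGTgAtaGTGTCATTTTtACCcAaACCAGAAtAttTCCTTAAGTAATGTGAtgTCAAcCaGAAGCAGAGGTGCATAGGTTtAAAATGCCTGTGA
Gzmg (chr14:56159611-56159709, minus strand): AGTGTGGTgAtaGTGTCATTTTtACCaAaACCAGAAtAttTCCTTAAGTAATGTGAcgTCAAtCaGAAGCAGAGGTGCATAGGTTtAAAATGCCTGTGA
Gzmf (chr14:56211444-56211542, minus strand): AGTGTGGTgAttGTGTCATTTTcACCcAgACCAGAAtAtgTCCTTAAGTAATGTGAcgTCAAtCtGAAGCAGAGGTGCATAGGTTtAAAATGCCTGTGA
Gzmc (chr14:56234669-56234767, minus strand): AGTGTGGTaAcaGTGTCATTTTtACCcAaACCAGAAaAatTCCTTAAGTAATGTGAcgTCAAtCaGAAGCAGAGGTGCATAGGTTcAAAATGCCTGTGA
Of the 99 positions, 85 (85.9%) were identical in all 5 genes, and pairs of genes shared from 89.9% (Gzmf and Gzmc) to 97.0% (Gzmd and Gzmg) of them. The longest stretch common to the 5 promoter windows had 20 bases, GAAGCAGAGGTGCATAGGTT, and on either strand it was found in 5 of 32851 RefSeq promoter windows of 300 bases, those of these 5 genes. The letters TGACGTCA, known as a cAMP response element, stand in the windows of Gzmg, Gzmf and Gzmc and in 1.79% of all windows. TGTGGT, the core of a RUNX motif, was in the windows of all 5 genes, of Gzmb, Gzma, Gzmm and Havcr2, and in 16.8% of all windows. TTCNNNGAA, the letters of a STAT site, was in the windows of Gzmb and Gzmm and in 8.30% of all, and TGANTCA, an AP-1 motif, in those of Gzmb and Havcr2 and in 7.81%. Both strands were searched, the cAMP element does not contain the AP-1 letters, and a match of letters is no measured site.

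The transcripts of these genes are alike as well. In a transcript of Gzmd, 21.5% of the 50-base windows were found word for word in another of the family, as were 19.1% of those of Gzme, 15.2% of Gzmg, 7.36% of Gzmf and 4.14% of Gzmc, and 0 of those of Gzmb. Among windows of 100 bases the largest share was 0.247%, in Gzmg. The split of UMIs between Gzmd, Gzme and Gzmg is therefore less certain than their sum.

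Most members held Gzmd and Gzme, and fewer held Gzmf and Gzmg. Gzmd had a UMI in 337 of 370 members of the IL-15SA library (91.1%) and in 214 of 235 of the combination library (91.1%), and Gzme in 88.4% and 87.2%. Gzmf was present in 41.9% and 40.9% of members and Gzmg in 83 and 47 members. These values are set by the rule and are a description only. Of the UMIs of the 4 genes in members, Gzmd gave 40.6% and 44.5%, Gzme 31.7% and 29.9%, Gzmf 22.2% and 20.8% and Gzmg 5.57% and 4.85%, not corrected for transcript length (909 to 964 bases).

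The sum in a member ran from 5 to 128 UMIs (median 10) in the IL-15SA library and from 5 to 59 (median 9) in the combination library. Exactly 2 of the 4 genes were seen in 192 and 120 members, 3 in 116 and 72, all 4 in 36 and 21, and 1 in 26 and 22. Single cells could be led by Gzmf, which reached 82 UMIs in 1 member and was the most abundant of the 4 in 79 and 44 members. Just below the threshold, cells with a sum of 4 (86 and 51 cells) had a median of 0.127% and 0.133% of their UMIs from the 4 genes. Just above it, cells with a sum of 5 (56 and 33) had 0.155% and 0.159%.

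Members were 8.85% of the filtered cells of the IL-15SA library (exact binomial 95% interval 8.01 to 9.75) and 3.49% of those of the combination library (3.07 to 3.96). Intervals here and below cover counting error only, not the spread between animals. Any UMI of the 4 genes was found in 34.7% (33.3 to 36.2) and 16.2% (15.4 to 17.1) of these cells. The IL-15SA library was higher in every bin of the sum above 0, from 20.9% against 10.6% at 1 to 2 UMIs to 1.72% against 0.490% at 20 or more. Its cells were deeper, with a median of 2671 against 2162 UMIs, and after each cell was thinned to 1000 UMIs, which left out no cell, 20.7% and 10.1% kept at least 1 UMI of the 4 genes. In cells with 0.15% or more stroma UMIs and no Ncr1, which should lack these genes, a UMI of any of the 4 was found before thinning in 24.2% of 132 cells (median 1822 UMIs) and in 7.41% of 580 (median 1902), and a sum of 5 or more in 1 cell of each. A single UMI was thus not rare in cells that should lack these genes, while a sum of 5 or more was at 0.758% and 0.172% there.

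**Figure D1:**
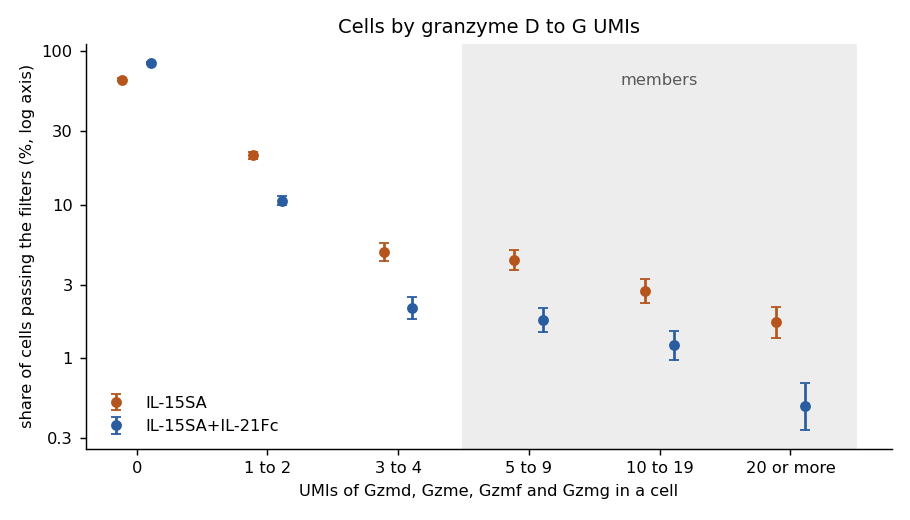
Share of the cells passing the 3 filters (y axis, percent, log scale) in each bin of the granzyme D to G UMI sum (x axis) in the IL-15SA library (4180 cells) and the combination library (6730 cells), with exact binomial 95% intervals. The share with a sum of 20 or more was 1.72% in the IL-15SA library and 0.490% in the combination library.

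Per UMI, the 2 treatments' members carried almost the same amount of these transcripts. Pooled over members, the 4 genes made up 3176 of every 1000000 UMIs (counts per 1000000, CPM) with IL-15SA and 3081 CPM with the combination, a ratio of 1.03 (exact conditional binomial 95% interval 0.984 to 1.08). Over all filtered cells the values were 559 and 257 CPM, a ratio of 2.18 (2.10 to 2.26). The rule sets the same floor of 5 UMIs in both libraries, so the levels in members are a description. Members held 36.7% of all UMIs of the 4 genes in the IL-15SA library and 41.4% in the combination library.

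Members had the marks of NK cells, of which Ncr1 was required by the rule in members and comparison cells alike. All 12 NK markers were found, at a summed 44480 CPM against 42335 CPM in cells with a sum of 0 in the IL-15SA library and 41312 against 38034 CPM in the combination library. Gzma, Gzmb and Prf1 of the granules made up most of this sum: the other 9 markers summed to 11993 against 13626 CPM and 12842 against 14216 CPM. Of these 9, 7 were below 0 on the log2 scale in both libraries, Ncr1, Klrb1c, Klrd1, Klre1, Klrk1, Tbx21 and Nkg7. For Ncr1 this is a description only, since the rule set a floor of 1 UMI in every cell of both groups. Cd4 and Cd8b1, which define T cell subsets, had 0 UMIs in members, Cd3e had 0 and 1 UMIs, and 7 of 12 T cell markers had a UMI in each library. Others were present: Cd3g was at 98.5 against 127 CPM and 107 against 133 CPM, and Cd3d had 40 and 28 UMIs in members. Trac was at 13.6 against 22.6 CPM and 37.7 against 23.5 CPM, and Trbc2 at 247 against 289 CPM and 400 against 378 CPM. The summed level of the 12 T cell markers was 3069 against 2558 CPM and 3117 against 2475 CPM. Most of it came from Thy1 and Trbc1, which NK cells also transcribe, and the part of this list in the results was not tested. Trdc, of the gamma delta T cell list, was at 397 against 369 CPM and 269 against 289 CPM. The 14 tumour or stroma genes summed to 76.7 against 124 CPM and 149.6 against 210.1 CPM, lower in members in both libraries. Among them are the genes whose share the rule capped in both groups of cells, so this sum is a description only. Neutrophil and erythroid markers had 0 UMIs in members. Of 7 B and plasma cell markers 1 and 3 had a UMI in members, at a summed 51.3 against 76.4 CPM and 57.6 against 115 CPM, nearly all of it from Ighm, the heavy chain of immunoglobulin M, while Ms4a1 and Igkc were at 0. Members were also deeper than their comparison cells, with a median of 4149.5 against 2513 UMIs and 3558 against 2083.5 UMIs. The part of depth in the gene differences was not tested beyond a second comparison, in which the cells with a sum of 0 were weighted to the members' UMIs per cell. It is drawn for the gene lists and given in the text beside some of the results only. Of the 5% of cells with the highest Scrublet doublet score, 3 were members in the IL-15SA library and 0 in the combination library. The libraries shared 60 barcode sequences, 2 of them in IL-15SA members and 0 in combination members.

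Outside the 4 chosen genes, 5145 genes were at 20 CPM or more in members or comparison cells of each library. Of these 27 (0.525%) were at least 2-fold higher in members in both libraries and 40 (0.777%) at least 2-fold lower. With the UMI-matched comparison the counts were 19 (0.369%) and 17 (0.330%), and 18 genes were in both sets of higher genes. Of genes named below, Cd226, Lat, Xcl1, Tnf, Il12rb2, Klf2, Maf, Dusp1, Fos and Icam1 were among the 40 but not the 17. Ifitm1 and Ifitm3 were among the 27 but not the 19. At 1.5-fold in both libraries, the bound used for gene lists below, 67 genes (1.30%) were higher and 186 (3.62%) lower, and 27.1% of genes were above 0 and 42.9% below 0 on the log2 scale in both. Across the 5145 genes the log2 ratios of the 2 libraries had a Pearson correlation of 0.637 and a Spearman correlation of 0.513, as a description, since genes are not replicates and both ratios rest on the same selection and the same depth gap. Log2 ratios have 1 CPM added to both values, and folds printed with an interval have nothing added.

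**Figure D2:**
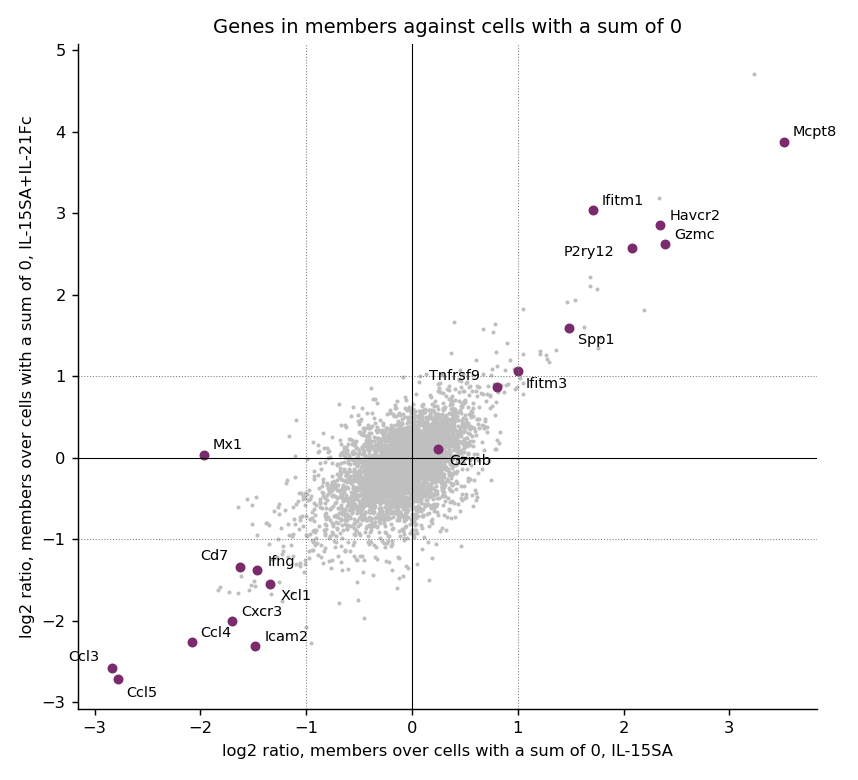
Log2 ratio of pooled CPM, members over cells with a sum of 0, for the 5145 genes in the IL-15SA library (x axis) and the combination library (y axis), with the 4 genes of the rule left out, 18 named genes marked and dotted lines at 2-fold. Mcpt8, Gzmc, Havcr2 and Ifitm1 stand at the upper right, Ccl3, Ccl5 and Ccl4 at the lower left, and Gzmb lies near 0.

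Gzmc, the gene next to the chosen 4, had the second highest level among the genes at least 2-fold higher, after Spp1. It stood at 3431 CPM in members and 652 CPM in comparison cells of the IL-15SA library, 5.26-fold (5.07 to 5.47), and at 3149 and 512 CPM in the combination library, 6.15-fold (5.89 to 6.43). Gzmc was also the broader transcript: 54.9% and 38.5% of cells with a sum of 0 held a UMI of it, against 95.1% and 94.5% of members. After thinning, the shares were 81.1% of members and 33.2% of comparison cells in the IL-15SA library, and 80.4% and 25.8% in the combination library. Stroma-marked cells without Ncr1 kept one in 33 of 132 and 74 of 580 cells. Of the filtered cells with 5 or more UMIs of Gzmc, 35.0% (289 of 825) and 52.8% (389 of 737) had a granzyme D to G sum of 0. High Gzmc was thus more common than membership and did not mark it alone.

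Of the granzymes outside this stretch, Gzmb and Gzma were less than 1.5-fold higher in members of both libraries, while Gzmk was past 1.5-fold in the combination library. Gzmb, at the end of the same locus, was at 9097 against 7647 CPM in the IL-15SA library (1.19-fold, 1.17 to 1.21) and at 6486 against 6021 CPM in the combination library (1.08-fold, 1.05 to 1.11). Gzma, on another chromosome, was at 20932 against 19061 CPM and 19885 against 16274 CPM, and Prf1, which encodes perforin, at 2458 against 2000.5 CPM and 2098 against 1523 CPM. All 5 measured genes of the list of other granzymes and perforin were above 0 in both libraries (27.1% of all genes were), with a median log2 ratio of 0.30 and 0.46, and 1 of them, Gzmc, passed 1.5-fold (1.30% of all genes did). Gzmk, a granzyme of less mature lymphocytes, was at 205 against 159 CPM and 222 against 90.8 CPM.

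Mcpt8, a serine protease known from basophils, had the largest fold of the named genes in the IL-15SA library. It was at 35.4 CPM in members and 2.19 CPM in comparison cells (60 and 17 UMIs, 16.2-fold, 9.30 to 29.5), and at 44.3 and 2.09 CPM in the combination library (40 and 27 UMIs, 21.2-fold, 12.7 to 35.9). Its gene lies in the same locus, 32.4 kb beyond Gzme with Ctsg between them, and the neighbours were looked up after this value was seen. UMIs of Mcpt8 were spread over 34 and 22 members, at most 7 and 8 in 1 cell, and those members had a median granzyme D to G sum of 14 and 11.5 against 9 and 9 in the other members. They were also deep, with a median of 4748.5 and 4373 UMIs against 4149.5 and 3558 over all members, and the part of depth in finding Mcpt8 was not tested. The 10 basophil and mast cell markers, Mcpt8 among them, summed to 60.77 against 15.99 CPM and 68.69 against 19.2 CPM. Mcpt8 gave 60 of their 103 UMIs in IL-15SA members and 40 of 62 in combination members. Cpa3, a mast cell protease, had 20 and 10 UMIs (11.8 against 1.93 CPM and 11.1 against 3.64 CPM). Kit had 20 and 12 UMIs, with log2 ratios of 0.26 and 0.25. The defining basophil genes Fcer1a, Ms4a2, Prss34 and Cd200r3 were at 0 UMIs in members of both libraries. In comparison cells they were also at 0, except for 3 UMIs of Cd200r3 in the combination library. Their absence thus does not set members apart. Farther out in the locus, Mcpt1, Mcpt2 and Mcpt4 had 0 UMIs in members, and Cma1, 173 kb beyond Gzme, was lower in members, at 5.90 against 20.5 CPM and 24.4 against 37.5 CPM, but with members taken at a sum of 10 or more its log2 ratio in the combination library was 0.22. Gzmn, which lies between Gzmg and Gzmf, had 3 and 4 UMIs in members and 0 in comparison cells.

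**Figure D3:**
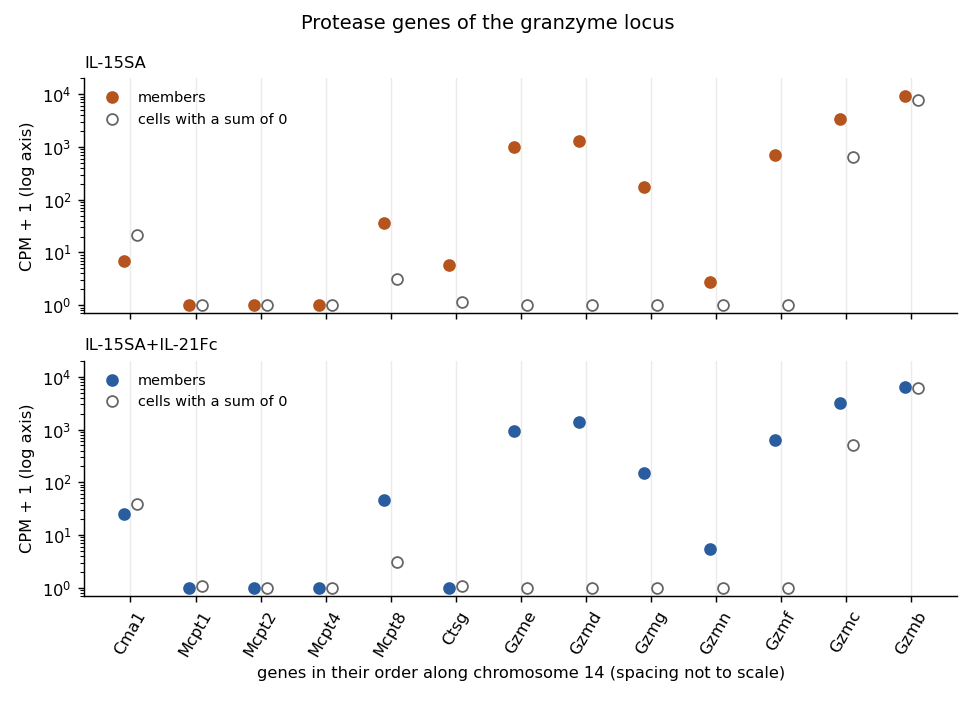
Pooled level (CPM plus 1, log axis) of the protease genes of the granzyme locus, in their order along chromosome 14 and not to scale, in members (filled) and in cells with a sum of 0 (open). Gzme, Gzmd, Gzmg and Gzmf are 0 in the open points by the rule; Mcpt8 and Gzmc are higher in members in both libraries, Gzmb differs little and Cma1 is lower at the sum of 5 or more drawn here.

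Genes that package and release granules did not follow the granzymes. The median log2 ratio over 16 such genes was 0.00 and -0.04, 0 passed 1.5-fold higher (1.30% of all genes did) and 1 passed it lower (3.62% did). Srgn, the proteoglycan that holds granzymes in the granule, was at 1317 against 1150.2 CPM and 1201 against 1041 CPM. Among serpins that inhibit granzymes, Serpinb9, the inhibitor of granzyme B, was at 368 against 353 CPM and 347 against 314 CPM. Serpinb6a was 1.61-fold (1.35 to 1.91) and 1.73-fold (1.39 to 2.12) higher, and Serpina3g was lower with log2 ratios of -0.83 and -0.89.

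Among receptors, Havcr2 stood out. It encodes TIM-3, an inhibitory receptor of stimulated lymphocytes, and was at 80.8 against 15.1 CPM in the IL-15SA library (5.36-fold, 4.16 to 6.92) and 51.0 against 6.19 CPM in the combination library (8.23-fold, 5.60 to 11.97). A UMI was found in 22.97% and 13.6% of members against 3.48% and 1.29% of comparison cells. Thinned to 1000 UMIs, these became 6.76% and 4.26% against 1.36% and 0.514%, with 0% and 0.172% in stroma-marked cells. Against UMI-matched cells the log2 ratios were 1.61 and 2.31.

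The other inhibitory receptors were closer to the comparison cells. Of 12 measured genes of that list 2, Havcr2 and Ctla4, passed 1.5-fold higher in both libraries (1.30% of all genes did) and 0 passed it lower. The median log2 ratio was 0.13 and 0.05, against -0.05 and -0.07 over all genes. Ctla4, an inhibitory receptor for CD80 and CD86, was 1.71-fold (1.503 to 1.95) and 1.87-fold (1.58 to 2.21) higher. Klrg1, a receptor of mature NK cells, was at 1898 against 1294 CPM and 2398 against 1309 CPM. Lag3 was at 57.8 against 38.8 CPM and 67.6 against 52.0 CPM, and Pdcd1, which encodes PD-1, at 10.6 against 4.90 CPM and 14.4 against 6.81 CPM, on 18 and 13 UMIs in members. With members taken at a sum of 10 or more, the log2 ratio of Pdcd1 in the combination library was -0.17. Entpd1, which encodes the ATP-cleaving enzyme CD39, had log2 ratios of 0.18 and 0.16. Tox, a transcription factor of exhausted T cells, was lower, at 1.77 against 13.3 CPM and 6.65 against 23.1 CPM, on 3 and 6 UMIs in members.

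Of the costimulatory receptors, Tnfrsf9, which encodes 4-1BB, was higher in members, at 1005 against 574 CPM (1.75-fold, 1.66 to 1.85) and 680.3 against 373 CPM (1.82-fold, 1.67 to 1.98). Cd27, a receptor of less mature NK cells, was lower with log2 ratios of -0.67 and -0.67. Activating receptors and their adaptors leaned lower: 16 of 21 were below 0 in both libraries (42.9% of all genes were), 5 passed 1.5-fold lower (3.62% did) and 0 higher. Their median log2 ratio was -0.37 and -0.31 (-0.19 and -0.22 with UMI-matched cells). Cd226, a receptor for ligands on stressed cells, was 2.47-fold (1.80 to 3.47) and 2.38-fold (1.60 to 3.70) lower, and Lat, an adaptor of receptor signalling, had log2 ratios of -1.06 and -1.29. Ncr1, which encodes the sorted receptor NKp46 and is counted among the 16, was at 1388 against 1691 CPM and 1479 against 1835 CPM. The rule required a UMI of Ncr1 in every cell of both groups. Such a floor weighs more in shallow cells, and the comparison cells were shallower, so the Ncr1 ratio is a description only. Cd7, a surface glycoprotein of NK and T cells, was at 204 against 629 CPM and 418 against 1059.6 CPM, 3.09-fold (2.77 to 3.46) and 2.54-fold (2.29 to 2.82) lower.

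Several chemokine genes were lower in members. Ccl5, which draws T cells and other leukocytes, was at 788 CPM in members and 5426 CPM in comparison cells of the IL-15SA library, 6.88-fold lower (6.52 to 7.27). In the combination library it was at 1532 and 10036 CPM, 6.55-fold lower (6.21 to 6.91). Ccl3 was 7.29-fold (5.72 to 9.44) and 6.07-fold (4.69 to 8.01) lower, and Ccl4 4.24-fold (4.003 to 4.49) and 4.82-fold (4.46 to 5.22) lower; both encode chemokines that draw leukocytes. Xcl1, which draws cross-presenting dendritic cells, was at 425 against 1081 CPM and 534 against 1564 CPM. Ifng, the gene of interferon gamma, was at 124 against 343 CPM and 122 against 318 CPM, and Tnf at 12.4 against 29.1 CPM and 12.2 against 29.6 CPM.

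In the list of chemokines and cytokines, 6 of 12 measured genes passed 1.5-fold lower in both libraries against 3.62% of all genes, with a median log2 ratio of -0.85 and -1.11. With UMI-matched cells the medians were -0.58 and -0.80, and Ccl5 alone had -1.87 and -1.91. The 1 gene that passed 1.5-fold higher was Spp1, which encodes the secreted protein osteopontin, at 5560.1 against 1981 CPM and 4522 against 1499.9 CPM. Spp1 is also strong in stroma-marked cells, 84.1% and 82.2% of which kept a UMI after thinning, against 87.8% and 86.0% of members and 63.5% and 53.9% of comparison cells. The stroma genes, summed above, include those that the rule capped in members and comparison cells. In the IL-15SA library 18.9% of members and 21.1% of comparison cells held a UMI of the capped genes. In the combination library these shares were 32.8% and 28.4%. The part of free RNA in the Spp1 level was not tested.

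Some cytokine and chemokine receptors were lower too. In the list of cytokine receptors and signalling 13 of 15 measured genes were below 0 in both libraries (42.9% of all genes were). Of the 15, 3 passed 1.5-fold lower (3.62% of all genes did) and 1 higher (1.30% did). The median log2 ratio was -0.45 and -0.29 (-0.26 and -0.17 with UMI-matched cells). Il12rb2, the signalling chain of the IL-12 receptor, was 2.36-fold (1.89 to 2.97) and 2.14-fold (1.62 to 2.88) lower, and Il18rap, a chain of the IL-18 receptor, 2.22-fold (1.64 to 3.07) and 1.95-fold (1.38 to 2.83) lower. Cxcr3, the receptor for CXCL9 and CXCL10, was at 14.7 against 50.1 CPM and 14.4 against 60.8 CPM. Il2rb, the chain shared by the IL-2 and IL-15 receptors, was level, at 907 against 913 CPM and 842 against 847 CPM, ratios of 0.993 (0.940 to 1.05) and 0.994 (0.922 to 1.07). Il2rg, the chain shared with the IL-21 receptor, is listed at 0 UMIs in every cell, so the files give no value for it. Tgfbr2, a chain of the TGF-beta receptor, was 1.68-fold (1.39 to 2.02) and 1.72-fold (1.36 to 2.16) higher.

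Genes known to respond to IL-15 through STAT5 differed in both directions: of 19 measured, 2 passed 1.5-fold higher in both libraries (1.30% of all genes did) and 2 lower (3.62% did). In both libraries 11 were below 0 (42.9% of all genes were) and 5 above (27.1% were), with a median log2 ratio of -0.40 and -0.20. With UMI-matched cells the medians were -0.09 and -0.07, against -0.05 and -0.06 over all genes. Gadd45g, a stress-induced signalling gene, was at 2056 against 1114 CPM and 1692 against 799.9 CPM, and Tnfrsf9 was the other. Pim2, a kinase gene, and Ccnd3, a cyclin gene, were lower with log2 ratios of -0.86 and -1.07 for Pim2 and -0.60 and -0.83 for Ccnd3.

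Of the transcription factors of the NK lineage, Eomes was close to the comparison cells and Tbx21 was lower in both libraries. Eomes was at 129 against 110.2 CPM and 124 against 119.9 CPM, and Tbx21, which encodes T-bet, at 168 against 226 CPM and 205 against 259 CPM. Zbtb32, a repressor induced in proliferating NK cells, was 2.04-fold (1.80 to 2.30) and 1.98-fold (1.63 to 2.38) higher. Klf2, which supports exit from tissue into blood, was at 292 against 592 CPM and 290.3 against 769 CPM, and Maf was lower with log2 ratios of -1.27 and -1.003. In the list of homing and maturation genes 10 of 11 were below 0 in both libraries (42.9% of all genes were). Of these genes 5 passed 1.5-fold lower (3.62% of all genes did) and 0 higher, with Klrg1 the 1 gene above 0. The medians of this list were -0.62 and -0.60 (-0.38 and -0.19 with UMI-matched cells). Itga1, which encodes the residence integrin CD49a, was at 43.7 against 31.3 CPM and 53.2 against 27.3 CPM, and Itgae, which encodes CD103, was under 3 CPM in every group. Of 13 measured genes of tissue residence and integrins, 1 passed 1.5-fold higher (1.30% of all genes did) and 4 lower (3.62% did). Their median log2 ratio was -0.12 and -0.17. The 10 markers of type 1 innate lymphoid cells, Itga1 among them, summed to 401 against 544 CPM and 466 against 608 CPM.

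Most immediate early genes, induced within minutes of stimulation, were lower. Of 17 measured, 14 were below 0 in both libraries (42.9% of all genes were), 8 passed 1.5-fold lower (3.62% of all genes did) and 0 higher. Their median log2 ratio was -0.67 and -0.61 (-0.37 and -0.33 with UMI-matched cells). Dusp1, a phosphatase, was at 185 against 474 CPM and 359 against 749 CPM, and Fos was 2.19-fold (1.83 to 2.63) and 2.31-fold (1.90 to 2.85) lower. Hspa1a, a heat shock gene, was also lower, at 681 against 1333 CPM and 728 against 1399 CPM. NF-kB targets and feedback genes had 5 of 14 past 1.5-fold lower (3.62% of all genes were). Among them were Nfkbia, the NF-kB inhibitor, at 575 against 1019.8 CPM and 619 against 1179.9 CPM, and Icam1 at 42.5 against 86.2 CPM and 22.2 against 96.4 CPM. The part of handling before lysis in these differences was not tested.

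Type I interferon response genes leaned lower, while Ifitm1 and Ifitm3 of the IFITM family, also known interferon targets, were higher. In the interferon list 15 of 18 measured genes were below 0 in both libraries (42.9% of all genes were), 7 passed 1.5-fold lower (3.62% of all genes did) and 0 higher. The medians were -0.93 and -0.56 (-0.60 and -0.36 with UMI-matched cells). Ifit2, an antiviral protein gene, was 3.93-fold (2.21 to 7.73) and 3.20-fold (1.90 to 5.89) lower. Ifitm1 was at 1916 against 585 CPM in the IL-15SA library, 3.27-fold (3.13 to 3.42), and at 1952 against 237 CPM in the combination library, 8.24-fold (7.77 to 8.74). Ifitm3 was 2.01-fold (1.87 to 2.16) and 2.08-fold (1.90 to 2.28) higher. Both encode membrane proteins that block virus entry, and the third measured member, Ifitm10, had log2 ratios of -0.55 and -0.17. With UMI-matched cells the log2 ratio of Ifitm1 in the IL-15SA library was 0.75, down from 1.71, while the combination library kept 2.54 of 3.04. Stroma-marked cells are rich in these transcripts too, since 41.7% and 30.9% of them kept a UMI of Ifitm1 after thinning, against 39.2% and 32.8% of members and 20.8% and 9.77% of comparison cells.

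Other families that were lower included the GIMAP genes, GTPases of lymphocyte survival, with 4 of 6 past 1.5-fold lower (3.62% of all genes were). Their median log2 ratio was -0.70 and -0.80 (-0.41 and -0.46 with UMI-matched cells). Gimap4 was 1.87-fold (1.72 to 2.05) and 1.85-fold (1.65 to 2.08) lower. All 10 measured MHC class I presentation genes were below 0 in both libraries (42.9% of all genes were), and 1 passed 1.5-fold lower. The medians were -0.32 and -0.34 (-0.18 and -0.19 with UMI-matched cells). H2-K1 was at 2114 against 2806 CPM and 2479.6 against 3329 CPM. Of the S phase genes 13 of 14 were below 0 in both libraries (42.9% of all genes were). Mcm5, a helicase subunit, was the 1 that passed 1.5-fold lower (3.62% of all genes did), at 1.86-fold (1.42 to 2.47) and 1.82-fold (1.22 to 2.83). With UMI-matched cells the S phase medians moved further down, from -0.28 and -0.34 to -0.58 and -0.68. The filter on cell cycle UMIs had been applied to both sides.

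Hypoxia and glycolysis genes leaned higher. Of 20 measured, 15 were above 0 in both libraries (27.1% of all genes were), 3 passed 1.5-fold higher (1.30% did) and 0 lower. Their median log2 ratio was 0.32 and 0.29 (0.23 and 0.19 with UMI-matched cells). Ndrg1, a hypoxia-induced gene, was 1.89-fold (1.42 to 2.49) and 1.91-fold (1.28 to 2.77) higher, and Slc16a3, the lactate exporter, had log2 ratios of 0.87 and 0.80. Hilpda, a hypoxia-induced lipid droplet gene, was at 851 against 488 CPM and 892 against 409 CPM. MYC and ribosome biogenesis genes had medians of 0.21 and 0.16, but -0.10 and -0.03 against UMI-matched cells. Car2, a carbonic anhydrase gene, was at 2325 against 1422 CPM and 2303 against 1337 CPM, and Plac8 at 1591 against 886 CPM and 1623 against 873 CPM.

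A further set of genes at low level was higher in members of both libraries. P2ry12, an ADP receptor known from microglia and platelets, was 4.78-fold (3.12 to 7.32) and 7.51-fold (4.21 to 13.05) higher. Ltb4r1, the leukotriene B4 receptor that guides leukocytes, was 3.33-fold (2.59 to 4.27) and 5.02-fold (3.51 to 7.08) higher. Cd55, which shields cells from complement, was 3.43-fold (2.92 to 4.03) and 2.57-fold (2.02 to 3.24) higher. Basp1, a membrane-bound signalling protein gene, was 5.04-fold (3.49 to 7.30) and 3.86-fold (2.35 to 6.11) higher.

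**Figure D4:**
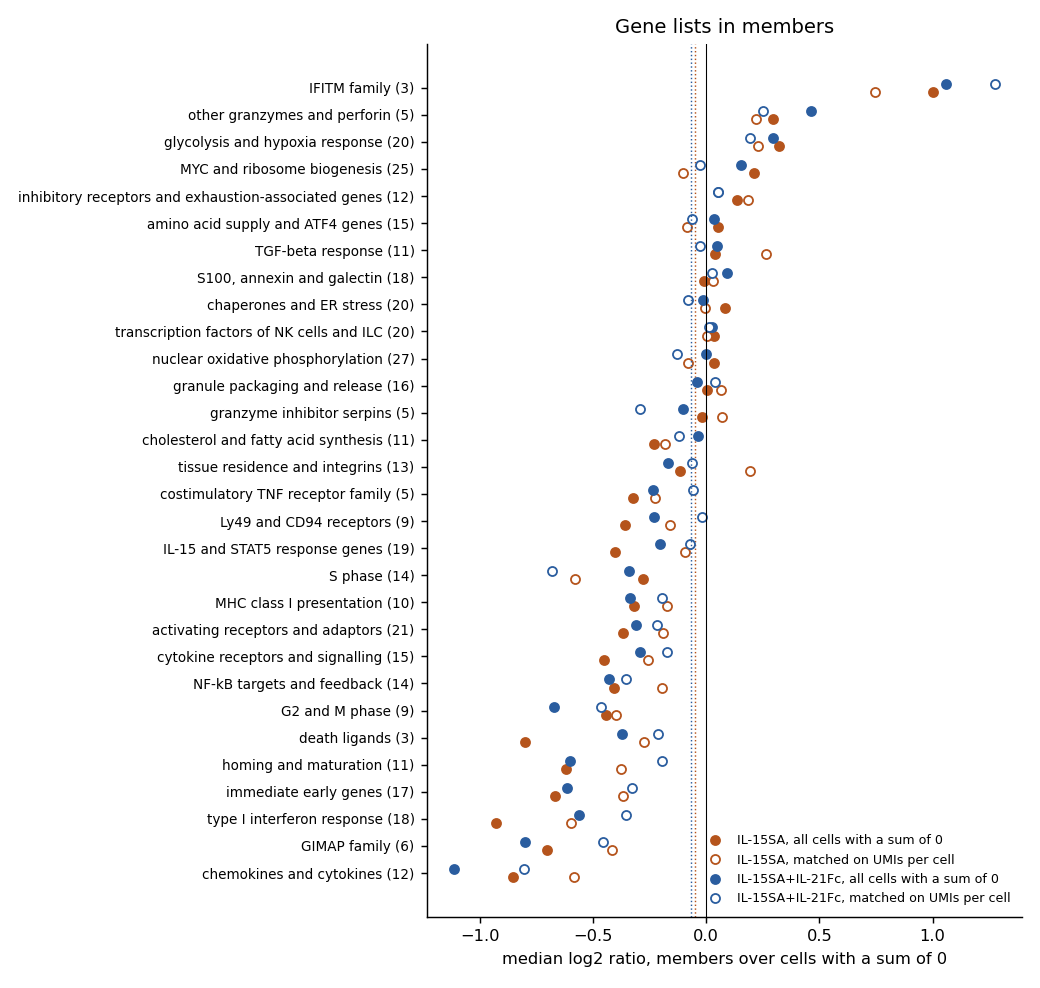
Median log2 ratio, members over cells with a sum of 0, of the gene lists with 3 or more measured genes (number in brackets) in the IL-15SA library and the combination library, against all cells with a sum of 0 (filled) and against cells weighted to the same UMIs per cell (open). Dotted lines mark the medians over all 5145 genes, -0.05 and -0.07; the IFITM family is at 1.00 and 1.06, the type I interferon response at -0.93 and -0.56, and chemokines and cytokines at -0.85 and -1.11.

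Pooled over cells, the levels of Gzmc and Ccl5 already differed between the bins below the threshold. Whether single cells are graded or the bins mix cells of different kinds was not tested. Over bins of 0, 1 to 2, 3 to 4, 5 to 9, 10 to 19 and 20 or more UMIs, Gzmc went from 652 through 973, 1894, 3021 and 3526 to 3956 CPM in the IL-15SA library, and from 512 to 4211 CPM in the combination library. Ccl5 went from 5426 through 3803, 1735, 1199.8 and 548 to 449 CPM in the IL-15SA library. In the combination library it went from 10036 to 1263.5 CPM at 10 to 19 and 1799 CPM at 20 or more. Cells with 3 or 4 UMIs, just below the threshold, thus lay between the cells with 0 and the members for both genes in both libraries. For Mcpt8 the last step was the largest: it went from 23.05 to 84.3 CPM and from 37.0 to 105 CPM between the last 2 bins. Gzmb had no such slope, with 7647 CPM at 0 and 8981 CPM at 20 or more in the IL-15SA library and 6021 and 7716 CPM in the combination library. Median UMIs per cell were also higher along the bins, from 2513 to 5347 and from 2083.5 to 4048, with 4112.5 at 10 to 19 in the combination library.

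Over the 12 bins of both libraries, the genes whose log2 level followed the log2 granzyme D to G share most closely were Gzmc (Pearson correlation 0.893), Fndc3a (0.877), Eef2 (0.851), Plac8 (0.849) and Hilpda (0.843). Those that ran most opposite to it were Ccl4 (-0.849), Adgre5 (-0.836), Fyn (-0.812), Ppp1r15a (-0.806) and Jun (-0.802). The 12 points come from 2 libraries and share their depth gradient, so these values are a description. The size of the differences varied widely within this group: Eef2, a translation factor gene, went from 772 to 959 CPM in the IL-15SA library, and Adgre5, an adhesion receptor gene, from 123 to 47.8 CPM.

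**Figure D5:**
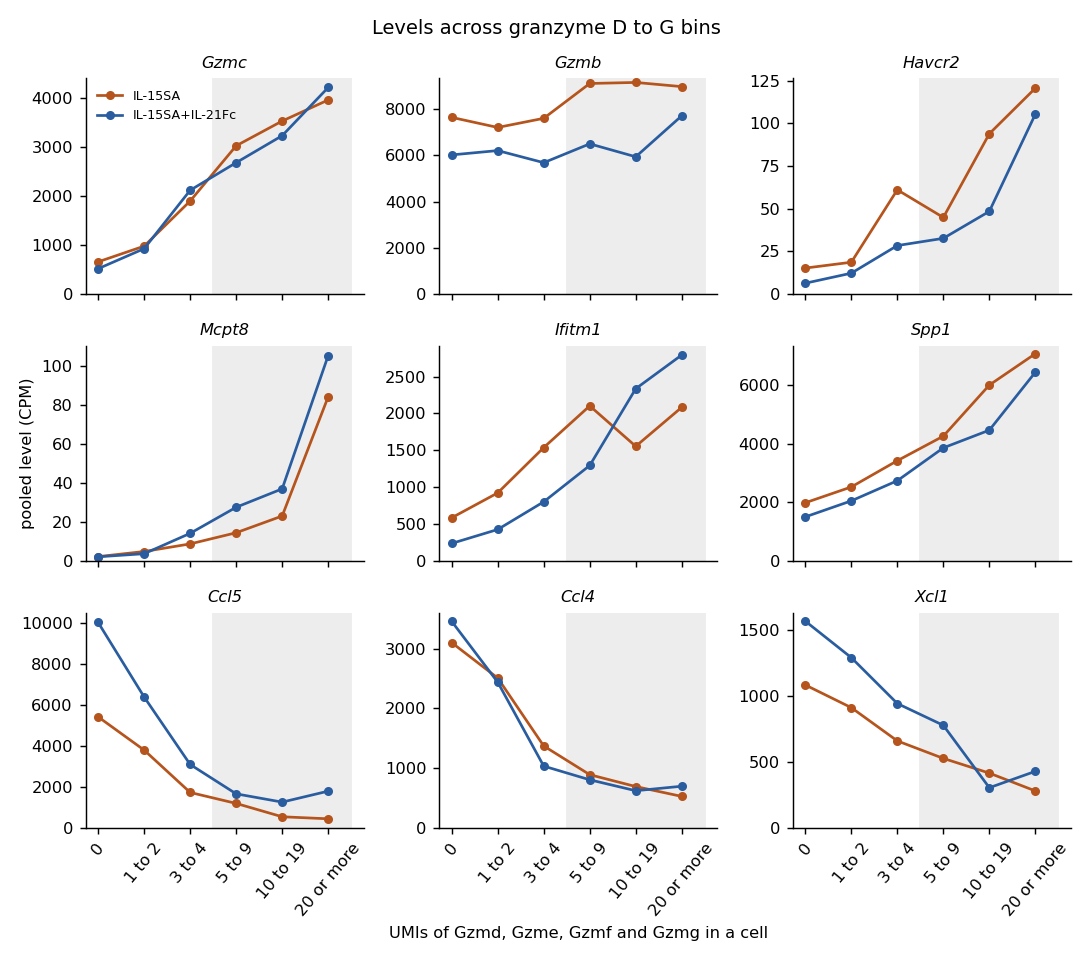
Pooled level (CPM, linear axes from 0) of 9 genes over bins of the granzyme D to G UMI sum in the IL-15SA and combination libraries, with the bins of members shaded. Gzmc, Havcr2, Mcpt8, Ifitm1 and Spp1 are higher and Ccl5, Ccl4 and Xcl1 lower in the member bins than at 0 in both libraries, and Gzmb stays between 5684 and 9162 CPM.

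Members differed among themselves in Gzmf and Gzmg. A split at 5 or more UMIs of these 2 genes against 0, chosen after the values were seen, gave 98 and 174 members in the IL-15SA library and 50 and 115 in the combination library, with similar depth (median 4359.5 and 4239.5 UMIs, and 3453.5 and 3544 UMIs). In 28 and 13 members Gzmf and Gzmg were high with under 3 UMIs of Gzmd and Gzme. Of 5066 genes, 22 (0.434%) were higher by 2-fold or more and 21 (0.415%) lower by 2-fold or more with Gzmf and Gzmg in both libraries. Within the IL-15SA library alone the shares were 3.19% higher and 4.16% lower, and within the combination library 9.59% and 11.1%. The split uses genes of the rule, and its high side had a larger granzyme D to G sum, a median of 18.5 against 8 and 15.5 against 7 UMIs, so the split and the sum cannot be told apart here. Basp1 was 2.52-fold (1.41 to 4.58) and 3.28-fold (1.13 to 10.2) higher. Mcpt8 was 2.83-fold (1.51 to 5.47) and 2.09-fold (0.795 to 5.42), the second interval including 1. Xcl1 was lower with Gzmf and Gzmg, at 261 against 539 CPM and 373 against 718 CPM. Gzmc was at 3881 against 3220 CPM and 3906 against 2825 CPM. Ifitm1 took opposite sides, 1.71-fold (1.57 to 1.85) in the IL-15SA library and 0.822-fold (0.713 to 0.944) in the combination library.

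Between the treatments, few of the genes that differed by 2-fold in members were well counted. Of 5323 genes at 20 CPM or more in members of either library, 62 (1.16%) were at least 2-fold higher in combination members and 50 (0.939%) at least 2-fold lower. Of these 62 and 50 genes, 7 and 5 were at 50 CPM or more. Among cells with a sum of 0, where summed UMIs are far larger, the counts were 7 (0.131%) and 3 (0.0560%) of 5359. Ccl5 was 1.94-fold (1.80 to 2.10) higher in combination members and 1.85-fold (1.83 to 1.87) higher in combination cells with a sum of 0. Cd7 was 2.05-fold (1.77 to 2.38) and 1.68-fold (1.63 to 1.74) higher, and Dusp1 1.94-fold (1.65 to 2.27) and 1.58-fold (1.52 to 1.64). Tnfrsf9 was lower in the combination, with ratios of 0.677 (0.616 to 0.743) in members and 0.651 (0.625 to 0.678) in comparison cells. Whether the 2 cell groups differ in any of these ratios was not tested.

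The genes at the ends of the treatment comparison rested on few UMIs. Mx1, an interferon-induced antiviral gene, was at 39.9 CPM in combination members and 7.67 CPM in IL-15SA members (36 and 13 UMIs, 5.20-fold, 2.69 to 10.7), and its ratio in cells with a sum of 0 was 1.18 (1.02 to 1.38). Over the interferon list 8 of 18 measured genes passed 1.5-fold higher in combination members and 0 lower, where 4.33% of the 5145 genes did so higher and 4.80% lower, with a median log2 ratio of 0.51 in members and 0.36 in cells with a sum of 0. Serpinb1a, a serpin of neutrophil proteases, was at 31.0 against 10.6 CPM, and Lta, which encodes lymphotoxin alpha, at 35.5 against 12.4 CPM. Cd83, an activation marker, was at 3.32 CPM in combination members and 21.2 CPM in IL-15SA members (3 and 36 UMIs, ratio 0.156, 0.0308 to 0.495). Havcr2 was lower in the combination in both cell groups, with ratios of 0.631 (0.441 to 0.887) in members and 0.411 (0.305 to 0.550) in cells with a sum of 0. Ifitm1 had a ratio of 1.02 (0.961 to 1.08) in members and 0.405 (0.387 to 0.424) in cells with a sum of 0; the first interval includes 1 and the second does not.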

How the data were processed

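Counts of UMIs per gene and cell, as deposited by the authors, were used without change, 1 library per treatment. The submitters' processing notes name cutadapt, featureCounts, Seurat 4, Scanpy and mm10; for the aligner, the annotation and cell calling, nothing is given in the sources used here. The members and the gene lists were chosen with earlier results of these data known. UMIs were summed over members and over cells with a sum of 0 in each library and expressed per 1000000 UMIs (CPM). Genes at 20 CPM or more in either cell group, in each library, were compared, with 1 CPM added on the log2 scale. Ratios have exact conditional binomial 95% intervals and shares Clopper-Pearson 95% intervals. For the UMI-matched comparison, cells with a sum of 0 were weighted to the members in bins of 0.1 of log10 UMIs; 0 and 1 members had no match. Named genes were those with the largest change past 2-fold in both libraries, the leading members of each gene list, a few key genes and those following the granzyme share over bins. Doublets were not removed; leaving out the 5% of cells with the highest Scrublet score was an alternative. The ratio calculation was run on counts simulated from pooled levels with known fold changes. That simulation had no spread between cells, no depth gap per cell and no selection on UMIs, so it does not bear on these. Some genes are not reported here. Python 3.11.15, numpy 2.4.6, scipy 1.17.1, pandas 2.3.3 and scanpy 1.11.5 were used.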

Additional observations from a re-analysis of the deposited data

Results flagged for a closer look

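Cd83, an activation marker of lymphocytes and dendritic cells, took opposite sides in the libraries: its log2 ratio of members over cells with a sum of 0 was 1.21 in the IL-15SA library and -2.15 in the combination library. It rested on 36 and 3 UMIs in members, and the difference was not tested.

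A granzyme D to G sum of 5 or more was also found in cells that the filters leave out, above the limit that a count of 0 allows. Among cells with 2 or more UMIs of the cell cycle genes it was found in 10.3% of 3370 in the IL-15SA library and 3.02% of 3579 in the combination library, and these cells had median depths of 4179.5 and 3411 UMIs. Among cells without Ncr1 the shares were 3.87% of 594 and 0.795% of 1383. Among cells with 0.15% or more stroma UMIs they were 1.07% of 374 and 0.680% of 1323. In each of these 3 groups the IL-15SA library had the higher share, as it did among the filtered cells.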

How the results depend on the processing

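No paired analysis was possible because each treatment has 1 library and replicate numbers are absent from the labels. The share of members among filtered cells in the IL-15SA and combination libraries was 13.8% and 5.62% at a sum of 3 or more, 4.47% and 1.71% at 10 or more, 6.53% and 2.66% when members were defined by 0.2% of UMIs or more, and 20.7% and 10.1% at 1 or more UMI after thinning to 1000. The IL-15SA library was higher under each of these 4 rules. Genes at least 2-fold lower in members of both libraries numbered 22 at a sum of 3 or more, 78 at 10 or more and 17 with UMI-matched cells. Genes at least 2-fold higher and lower in both libraries numbered 50 and 111 with a filter of 5 CPM and 15 and 21 with 50 CPM. The number of genes compared differs between settings and is given here only for the main one, so these counts and those that follow are not shares. Genes at least 2-fold higher and lower in combination members than in IL-15SA members numbered 34 and 23 at a sum of 3 or more, 188 and 170 at 10 or more, 164 and 138 by UMI share, 132 and 131 with 0 cell cycle UMIs, 30 and 18 with 5 CPM added, 476 and 359 with a filter of 5 CPM, 7 and 5 with 50 CPM, and 95 and 82 with a mean over cells. Of 3122 alternative values of 223 gene results, 6 reversed, all in members over cells with a sum of 0 in the combination library: at a sum of 10 or more the log2 ratio was 0.22 for Cma1, -0.42 for Arid2, -0.12 for Serpinb1a and -0.17 for Pdcd1, and for Arid2 it was -0.39 by UMI share and -0.023 with 0 cell cycle UMIs. Between libraries, 3 of 448 values reversed: Arid2 had -0.16 at a sum of 10 or more and -0.042 with 0 cell cycle UMIs, and Cited4 had -0.35 with 0 cell cycle UMIs. The cause was not tested. Reversals were counted only for results whose main value was 1.5-fold or more in size. Of 208 alternative values of the 15 list medians of that size, 0 reversed. Smaller medians could change sign uncounted: with UMI-matched cells the MYC and ribosome biogenesis medians went from 0.21 and 0.16 to -0.10 and -0.03. With UMI-matched cells, 161 gene ratios of members over cells with a sum of 0 left the interval of the main value and 185 did not. Of the list medians 26 moved past the bound set for them and 36 did not. With 235 and 370 members, differences in genes under about 20 CPM rest on few UMIs.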
